A study of Mus musculus with 4 samples.

Results

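The genes described here encode heat shock proteins, the proteins that assist them and the heat shock factors that switch them on. They are 41 of the 55401 genes in the count files, chosen by name from a list that covers the Hsp70, Hsp110, Hsp90, chaperonin, small Hsp and Dnaj families, 4 cochaperones and 2 heat shock factors. The libraries came from C57BL/6 mice subjected to cecal ligation puncture (CLP), an operation that brings on sepsis from the animal's own gut contents. There was 1 kidney library from the CLP group, 1 kidney library from the CLP + MLT group, and 1 heart library from each of these groups. For the kidneys, the study's methods give male mice of 8 weeks, 14 days of melatonin (MLT) before surgery in the drinking water (25 μg/ml), and collection 24 h after surgery. For the hearts, the sources used here give the tissue, the strain and the treatment but no dose or time. All 4 libraries came from mice with CLP, and no sham library was used here. It is not stated how many mice went into each library, and the titles of the CLP + MLT libraries carry a 4 that they do not explain. No group had a replicate, so none of the differences below has been set against the spread between mice.

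Heat shock proteins are molecular chaperones. Hsp70 proteins bind stretches of unfolded protein, Dnaj proteins (Hsp40) bring them their clients and start their ATP cycle, and Hsp110 proteins release the nucleotide again. Hsp90 proteins finish the folding of kinases and hormone receptors, the chaperonins fold proteins inside mitochondria, and small Hsps hold damaged proteins so that they do not clump. In muscle, small Hsps also guard the sarcomere and its filaments. Heat shock factor Hsf1 binds repeats of the bases GAA and its complement TTC in front of its target genes when unfolded protein builds up in the cell.

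The element that Hsf1 is known to bind was looked for in the promoters of the members, because it is the sequence that links members of different families. The 13-base heat shock element, which is GAA, TTC and GAA in a row with any 2 bases between them, or TTC, GAA and TTC on the other strand, was searched in RefSeq promoters (GRCm38.p6, 250 bases before to 50 after each start). The table held promoters for 33 of the 41 genes, and 5 of the 33 (15.2%) had the motif, against 0.662% of all 27025 genes in the table. These 5 genes were Hspd1, Hspe1, Hsph1, Dnajb6 and Chordc1. Hspd1 and Hspe1 lie head to head on chromosome 1, and their windows share 285 bases and the same motif pair, so they are not 2 separate cases. The windows of these genes are shown with the motif in capitals, so that the shared element of Hspd1 and Hspe1 can be seen beside the single or overlapping ones of the others.
Hspe1, chr1:55087898-55088197, plus strand: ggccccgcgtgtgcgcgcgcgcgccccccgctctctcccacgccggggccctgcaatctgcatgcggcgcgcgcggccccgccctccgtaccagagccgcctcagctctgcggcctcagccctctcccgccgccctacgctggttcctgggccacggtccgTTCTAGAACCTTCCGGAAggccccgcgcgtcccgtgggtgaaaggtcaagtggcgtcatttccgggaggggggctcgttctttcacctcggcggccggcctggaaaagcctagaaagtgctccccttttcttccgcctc
Chordc1, chr9:18292017-18292316, plus strand: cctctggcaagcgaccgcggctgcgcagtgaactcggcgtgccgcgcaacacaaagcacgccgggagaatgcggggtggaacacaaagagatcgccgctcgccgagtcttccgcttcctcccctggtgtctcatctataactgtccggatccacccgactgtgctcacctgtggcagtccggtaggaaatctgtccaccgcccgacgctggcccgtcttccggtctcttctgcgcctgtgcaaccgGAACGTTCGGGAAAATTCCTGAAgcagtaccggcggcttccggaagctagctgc
Hsph1, chr5:149636266-149636565, minus strand: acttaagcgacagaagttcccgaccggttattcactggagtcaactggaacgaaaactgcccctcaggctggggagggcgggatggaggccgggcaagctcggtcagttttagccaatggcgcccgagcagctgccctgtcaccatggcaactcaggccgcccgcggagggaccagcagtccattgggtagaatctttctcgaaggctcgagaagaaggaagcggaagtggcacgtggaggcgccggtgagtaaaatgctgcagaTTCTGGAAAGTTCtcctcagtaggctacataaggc
Dnajb6, chr5:29735648-29735947, plus strand: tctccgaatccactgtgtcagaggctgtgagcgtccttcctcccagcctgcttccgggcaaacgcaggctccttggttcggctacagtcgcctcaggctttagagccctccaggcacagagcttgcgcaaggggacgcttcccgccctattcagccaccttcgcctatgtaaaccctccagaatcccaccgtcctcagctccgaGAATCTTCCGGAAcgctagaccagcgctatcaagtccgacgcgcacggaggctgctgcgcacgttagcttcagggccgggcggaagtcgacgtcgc
Genes with and without the motif overlapped in their log2 ratios of CLP + MLT over CLP. In kidney, the 5 genes with it had a median of 0.06 and ranged from −0.53 to 0.27, and the 27 without it that passed the filter on low counts had a median of −0.25 and ranged from −1.36 to 0.79. In heart, the medians were 0.16 for the 5 and −0.05 for the 28. A match to these letters is a description of the window only, and no match says only that these letters were not in it.

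Between 15883057 and 22927905 reads were counted on genes in each library. Among reads that lay on 1 gene or on none, 52.1% to 52.6% lay on none, and the mitochondrial genome supplied 14.8% (CLP) and 24.2% (CLP + MLT) of the kidney counts and 31.6% and 36.0% of the heart counts. The labelled tissues showed their markers. Myh6, which encodes the main myosin of the adult mouse heart, had 208975 and 158174 counts in the heart libraries and 69 and 61 in the kidney libraries. Kap, a proximal tubule gene, had 448683 and 439585 counts in the kidney libraries but also 4352 and 9602 in the heart libraries. The kidney marker genes in heart are therefore given below beside the heart results.

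The order of the members differed between the tissues. Levels are compared between genes in TPM, a share of transcripts in each library, which divides the counts by the exonic length of the gene. In the CLP kidney library the highest was Hspa8, the constitutive Hsp70 of the cytosol, with 1615 TPM. It was followed by Hsp90ab1, the constitutive Hsp90, with 817 TPM, by Hsp90b1, the Hsp90 of the endoplasmic reticulum (ER), with 287 TPM, and by Hspd1, the mitochondrial Hsp60, with 280 TPM. In the CLP heart library the highest was Cryab, the small Hsp αB-crystallin, with 559 TPM. Hspa8 was at 431 TPM there, Hspb7, the cardiovascular small Hsp, at 367 TPM and Hsp90ab1 at 285 TPM. In TPM, 26 of the 40 members counted in kidney were higher in the CLP kidney library than in the CLP heart library, and 14 were higher in the heart library. Among the 14 were the 6 small Hsps seen in both tissues, from 2.1-fold for Hspb1 to 48.3-fold for Hspb7, and Hspa12b, an Hsp70 relative of endothelial cells, with 15.7-fold. Hspb3, a small Hsp of muscle, had 50 counts in the CLP heart library and 0 in the CLP kidney library, where a floor of 3 counts allows up to 0.131 CPM, the counts scaled to a common library total. The inducible genes Hspa1a and Hspa1b were low in every library, at 12.8 and 16.3 TPM in the CLP kidney library and 1.73 and 1.38 TPM in the CLP heart library. Of their 50-base stretches, 66.3% and 62.3% also occur in other genes. Reads without a unique place, 23.6% to 38.6% of each file, were not counted on genes, so these 2 levels may be too low. TPM is a share of each library, and the mitochondrial share above enters it.

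In kidney, most members were lower in the CLP + MLT library. The question of the comparison is what melatonin does in the septic kidney. Of the 40 members that passed the filter of a mean of at least 10 counts, 27 were lower and 13 were higher, and the median log2 ratio was −0.24, against −0.01 over all 16932 genes that passed. A gene was called where its fold change reached 1.5 and the exact binomial p-value of its reads did not exceed 0.01, a test that compares the 2 libraries and not the conditions. With scaling by library size only, 15 members were lower and 2 were higher, and 18.3% of all genes were called. With TMM scaling, 8 members were lower and 2 were higher by this rule. The 10 of 40 are 25%, against 15.3% of all genes, with 20% of the members called lower against 7.87% and 5% called higher against 7.48%. When the fold change alone was used, the same 10 members passed and 22.7% of all genes did, so that their number lay near that background. Most members had a mean of at least 100 counts in kidney. By the rule with the p-value, 12.4% of all genes with such a mean were called. The lower genes were the small Hsps Hspb1, Hspb6 and Hspb8, the Hsp70 genes Hspa1b, Hspa2 and Hspa13 and the ER Dnaj genes Dnajb9 and Dnajb11, and the higher genes were Cryab and Hspb7. In heart, 24 of 41 members were lower and 17 were higher, with a median of −0.08, against −0.00 over all 15871 genes. The 5 called members (12.2%, against 15.9% of all genes) were all lower, against 8.89% of all genes called lower and 7.05% called higher, and all were small Hsps. With scaling by library size only, 5 were lower and 1 was higher. Mice were then assumed to vary by a coefficient of 0.2 in edgeR's exact test. Of the kidney calls 1 was left (Hspb1), and of the heart calls 4 (Hspb2, Hspb3, Hspb7 and Cryab). At this setting 3.62% of all genes were called in kidney and 4.19% in heart. At 0.4, 0 were left in either tissue, against 0.543% and 0.397% of all genes.

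**Figure D1:**
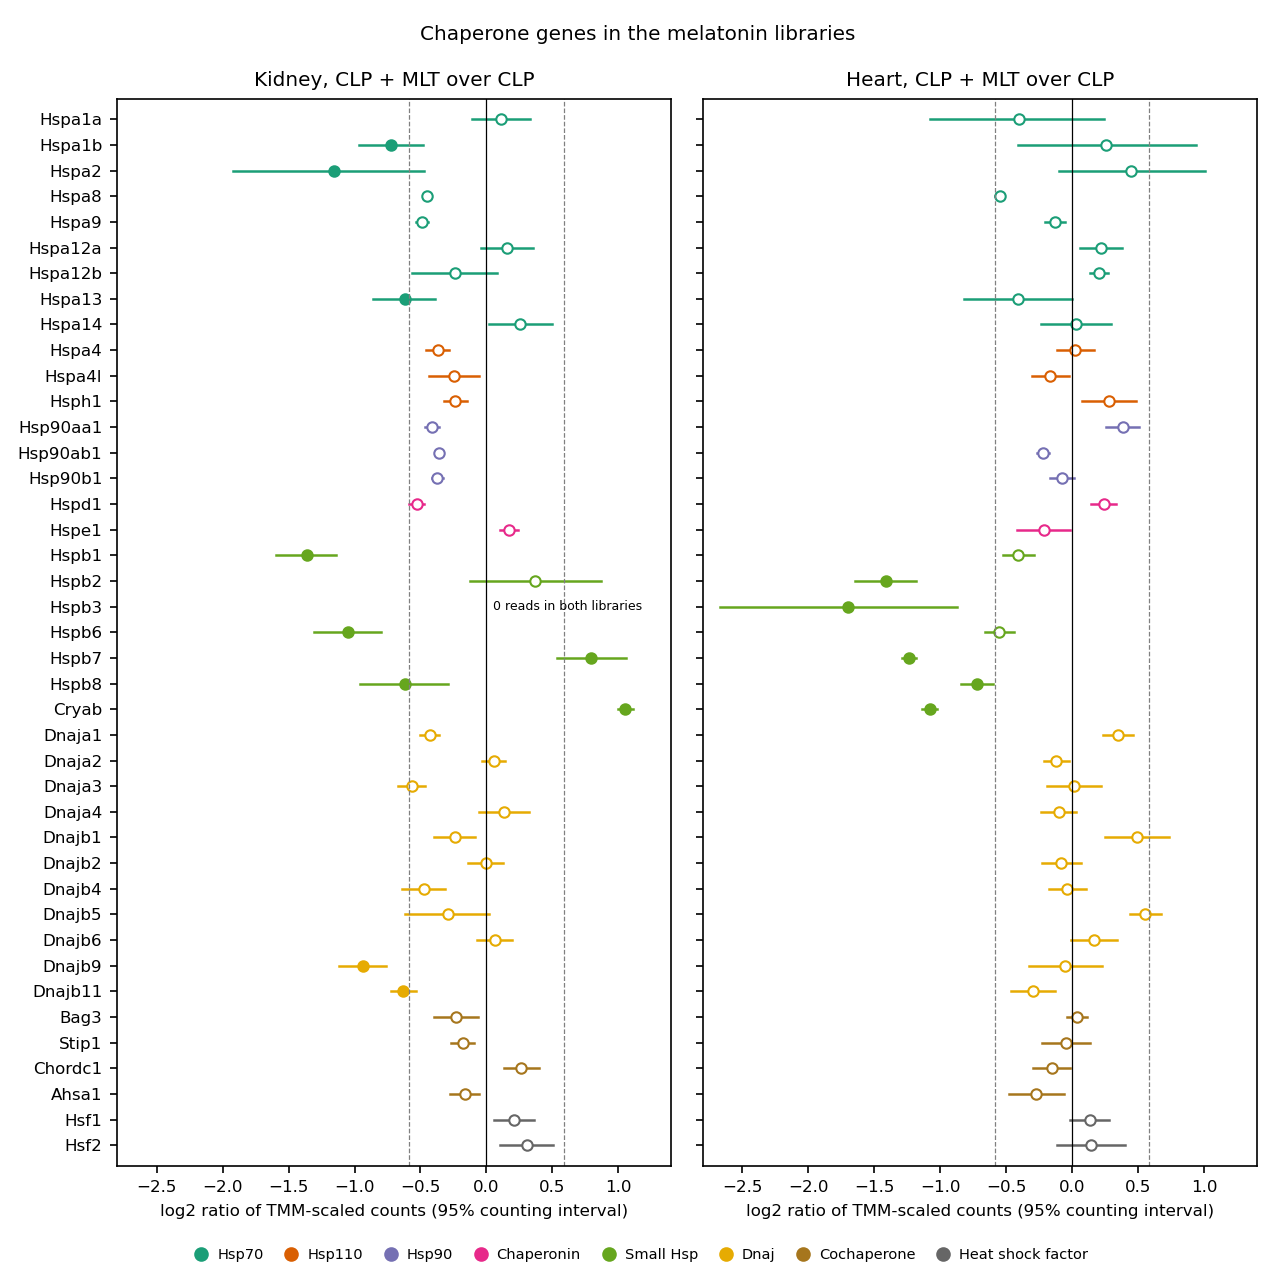
Log2 ratio of CLP + MLT over CLP for the 41 members in kidney (left) and heart (right), with the 95% exact interval for counting error as a line. Filled points are called genes, dashed lines mark 1.5-fold, colours mark the families, and most points lie left of 0 in kidney, while in heart the filled points are small Hsps only.

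The lowest and the highest ratio in kidney, and all calls in heart, belonged to small Hsps, and in kidney these genes went both ways. All levels that follow are in CPM after TMM scaling within a tissue, given as CLP and then CLP + MLT, and each interval is a 95% exact Clopper-Pearson interval for counting error only. In kidney, Hspb1, which encodes Hsp27, the general small Hsp that protects actin filaments, was at 33.6 and 13.1 CPM. Its log2 ratio was −1.36 (−1.59 to −1.14), the lowest of all members in kidney. About 48.8% of the 50-base stretches of Hspb1 transcripts also occur in the pseudogene Hsp25-ps1, which had 67 and 32 counts against 820 and 202 for Hspb1. Hspb6, which encodes Hsp20, a small Hsp of smooth and cardiac muscle, was at 22.7 and 10.99 CPM, a log2 ratio of −1.05 (−1.31 to −0.80). Hspb8, the partner of Bag3 in clearing clumped protein, was at 10.6 and 6.92 CPM, a log2 ratio of −0.62 (−0.96 to −0.29). The smooth muscle markers were lower beside them, all 4 of 4, with log2 ratios from −1.38 for Cnn1 to −0.13 for Myh11 and a summed level of 94.0 and 76.3 CPM, and their part in these values was not tested. In bulk tissue, fewer cells of a type and less RNA per cell cannot be told apart.

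Cryab went the other way in kidney and was the member with the highest ratio. It was at 167 and 347 CPM, from 4085 and 5369 counts, a log2 ratio of 1.05 (0.99 to 1.11). Hspb7 was also higher, at 9.63 and 16.7 CPM, a log2 ratio of 0.79 (0.53 to 1.05). Hspb2, which lies head to head with Cryab on chromosome 9 and shares 252 exonic bases with it on the opposite strand, was at 3.19 and 4.14 CPM and had a log2 ratio of 0.37 (−0.13 to 0.87), an interval that spans 0 at these counts. These shared bases are 30.2% of Hspb2 and 17.0% of Cryab, and reads in them may not be told apart. Hspb3 had 0 counts in both kidney libraries. Because Cryab is by far the most abundant small Hsp in kidney, it took 67.2% of the family's TPM with CLP alone and 88.0% with melatonin, while Hspb1 took 19.3% and 4.75%. Markers of the collecting duct were higher in the same library, 4 of 4, with a summed level of 543 and 658 CPM. Markers of the thick limb and distal tubule were 2 higher and 2 lower, from −0.39 for Calb1 to 1.06 for Slc12a1, with a summed level of 5518 and 5758 CPM. Of the 8 proximal tubule markers 6 were higher and 2 lower, with 3 called higher and 2 called lower, from −2.25 for Slc5a2 to 0.64 for Slc27a2, and their summed level was 24952 and 37316 CPM, a log2 ratio of 0.58. The part of these cells in the Cryab value was not tested. In the kidney libraries, 13 of the 15 cardiomyocyte markers passed the filter, 8 were higher and 5 lower. The 4 called were all higher (Myh7, 2.37, Ryr2, 1.93, Myl2, 1.80, and Tnni3, 1.09). They had few counts, 5 and 18 for Myh7, 14 and 35 for Ryr2, 10 and 23 for Myl2 and 30 and 41 for Tnni3. Myh7 passed the filter only through its CLP + MLT count. The lowest was Myl3 (−0.68, 56 and 22 counts). Mybpc3 (13 and 4 counts) and Actc1 (6 and 5) did not pass. The summed level of the 15 markers was 277 and 262 CPM, most of it Atp2a2, which is not particular to the heart and had −0.14. The part of these muscle genes in the Cryab and Hspb7 values was not tested.

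In heart, all 7 small Hsps were lower in the CLP + MLT library, and 5 of them were called. Their median log2 ratio was −1.08, whereas no other family had a median further from 0 than 0.14. Cryab was at 474 and 224 CPM, a log2 ratio of −1.08 (−1.14 to −1.02). Hspb7 was at 584 and 247 CPM, a log2 ratio of −1.24 (−1.29 to −1.19). Per length these were the most abundant small Hsps of the CLP heart library (559 and 367 TPM), and both were below 0.5 of their CLP level in CPM. Hspb2, a muscle small Hsp that binds the myotonic dystrophy kinase, was at 35.0 and 13.1 CPM, a log2 ratio of −1.41 (−1.65 to −1.19). Hspb3, which pairs with Hspb2, was counted 50 and 15 times, with −1.70 (−2.67 to −0.88) and the widest interval of the called genes. Hspb8 was at 90.8 and 55.1 CPM, with −0.72 (−0.84 to −0.60). Hspb6 had −0.55 (−0.66 to −0.44) and Hspb1 −0.41 (−0.52 to −0.29), and their intervals lay below 0 but the ratios were under the threshold.

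Several other measures differed between the heart libraries as well. Of the 15 cardiomyocyte markers, 14 passed the filter, 9 were lower and 5 were higher. Among them 5 were called lower and 1 was called higher, and 8 were not called. Those called lower were Tnnc1 (−1.68), Myl3 (−1.46), Myl2 (−1.33), Tnni3 (−1.27) and Nppa (−1.18). The marker called higher was Myh7 (0.94). Actc1 (0.46), Ttn (0.19), Mybpc3 (0.11) and Pln (0.09) were higher but not called. The summed level of the markers was 41492 and 29825 CPM, a log2 ratio of −0.48. The ratios ranged from −1.68 for Tnnc1 to 0.94 for Myh7, and Myl7, a gene of the atria, had 1 and 0 counts. Of 8 skeletal muscle markers, 5 passed the filter in heart, 3 lower and 2 higher. Acta1 (−1.45, 809 and 294 counts) and Tnni2 (−3.31, 64 and 6) were called lower. Mylpf (0.95, 49 and 95 counts) and Pvalb (0 and 20) were called higher, and Pvalb passed only through its CLP + MLT count. Over all genes, the log2 ratio in heart ran with transcript length. With the genes split into 10 groups of like size by length, the group with the shortest transcripts had a median of −0.20, the next −0.15 and the group with the longest 0.09, whereas the corresponding medians in kidney were 0.07, 0.01 and −0.03. Hspb1, Hspb2 and Hspb3 were in the shortest group in heart, Cryab and Hspb6 in the next, and Hspb7 in the fifth. With the median of each length group subtracted, a correction chosen after seeing the data, the same 5 small Hsps were called in heart and the family median was −0.93, with −0.93 for Cryab, −1.25 for Hspb7 and −1.22 for Hspb2. The uncalled Hspb1 moved from −0.41 to −0.21 (−0.33 to −0.10) and Hspb6 from −0.55 to −0.40. The group medians were small, −0.20 at the lowest, so calls far past the threshold could not be lost by this subtraction. The part of transcript length in the small Hsp values was not tested. Of the 8 proximal tubule markers in the heart libraries, 6 were higher, 5 of them called, and 2 were lower (Slc5a2, −0.37, and Aqp1, −0.03), with a summed level of 782 and 1239 CPM. The collecting duct markers summed to 3.81 and 14.9 CPM there, with 3 of 3 tested called higher. Aqp2 had 26 and 143 counts, Hsd11b2 had 26 and 66, and Fxyd4 had 2 and 22. Fxyd4 thus passed the filter only through its CLP + MLT count, and Atp6v1g3, with 8 and 10 counts, did not pass. Of the 4 thick limb and distal tubule markers 3 were higher and 1 was called, Slc12a1 with 1.59, and their sum was 67.0 and 95.7 CPM. The part of cardiomyocyte number, of skeletal muscle genes and of kidney RNA in the small Hsp values was not tested.

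**Figure D2:**
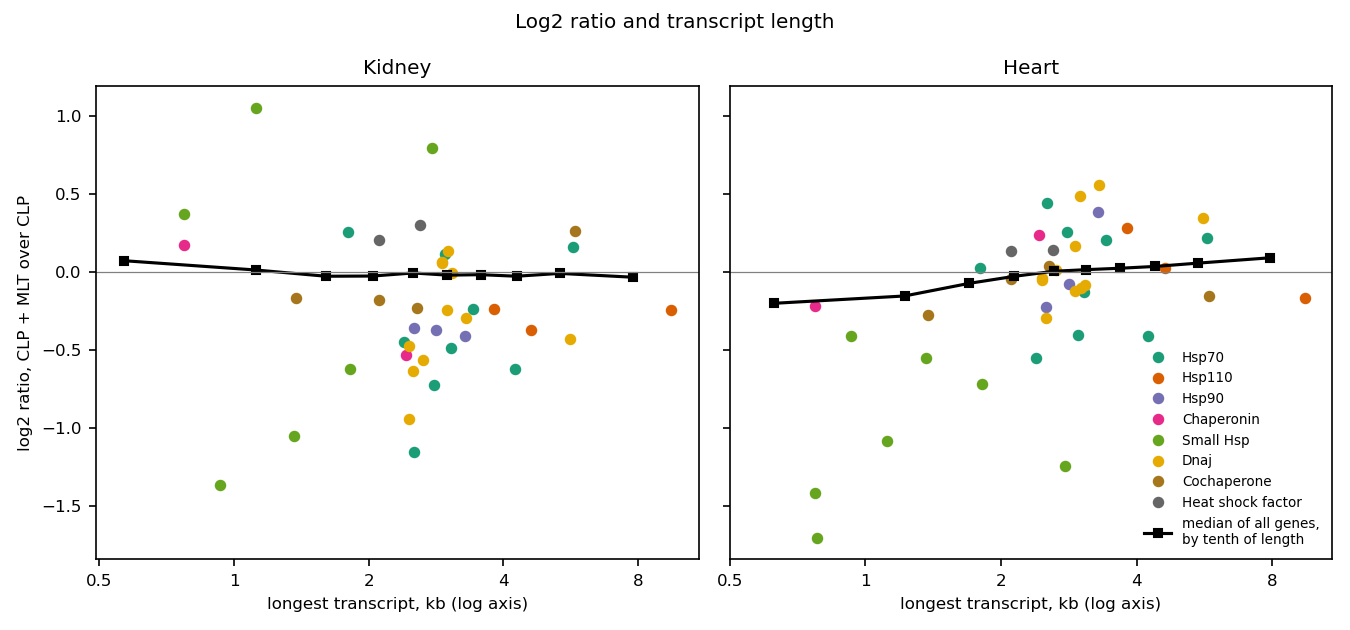
Log2 ratio of CLP + MLT over CLP against the longest transcript of each gene in kilobases (log axis) for the members in kidney and heart, with the median of all genes in each of the 10 length groups as black squares. In heart the black line climbs from −0.20 to 0.09, and the small Hsps lie below it, at −0.41 to −1.70.

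Cryab and Hspb7 were the only members called in opposite directions in the 2 tissues, 2 of the 40 tested in both, against 1.41% of 14592 genes. The difference, heart minus kidney, was −2.13 (−2.21 to −2.05) for Cryab and −2.03 (−2.29 to −1.77) for Hspb7 on the log2 scale, with Wald intervals for counting error. Hspb2 was next with −1.78 (−2.31 to −1.26), but it was not called in kidney. Hspb8 was lower in both tissues, and its difference of −0.10 (−0.45 to 0.25) spanned 0. It was the only member called in the same direction in both, against 1.96% of genes. The ratio of Cryab to Hspb1 within a library, which no scaling can change, was 4.98 and 26.6 in counts in the kidney libraries and 5.35 and 3.35 in the heart libraries. The log2 changes were 2.42 (2.19 to 2.65) and −0.67 (−0.80 to −0.55). Cryab and Hspb1 were the members with the highest and the lowest log2 ratio in kidney. No other pair of members could therefore change more in kidney.

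**Figure D3:**
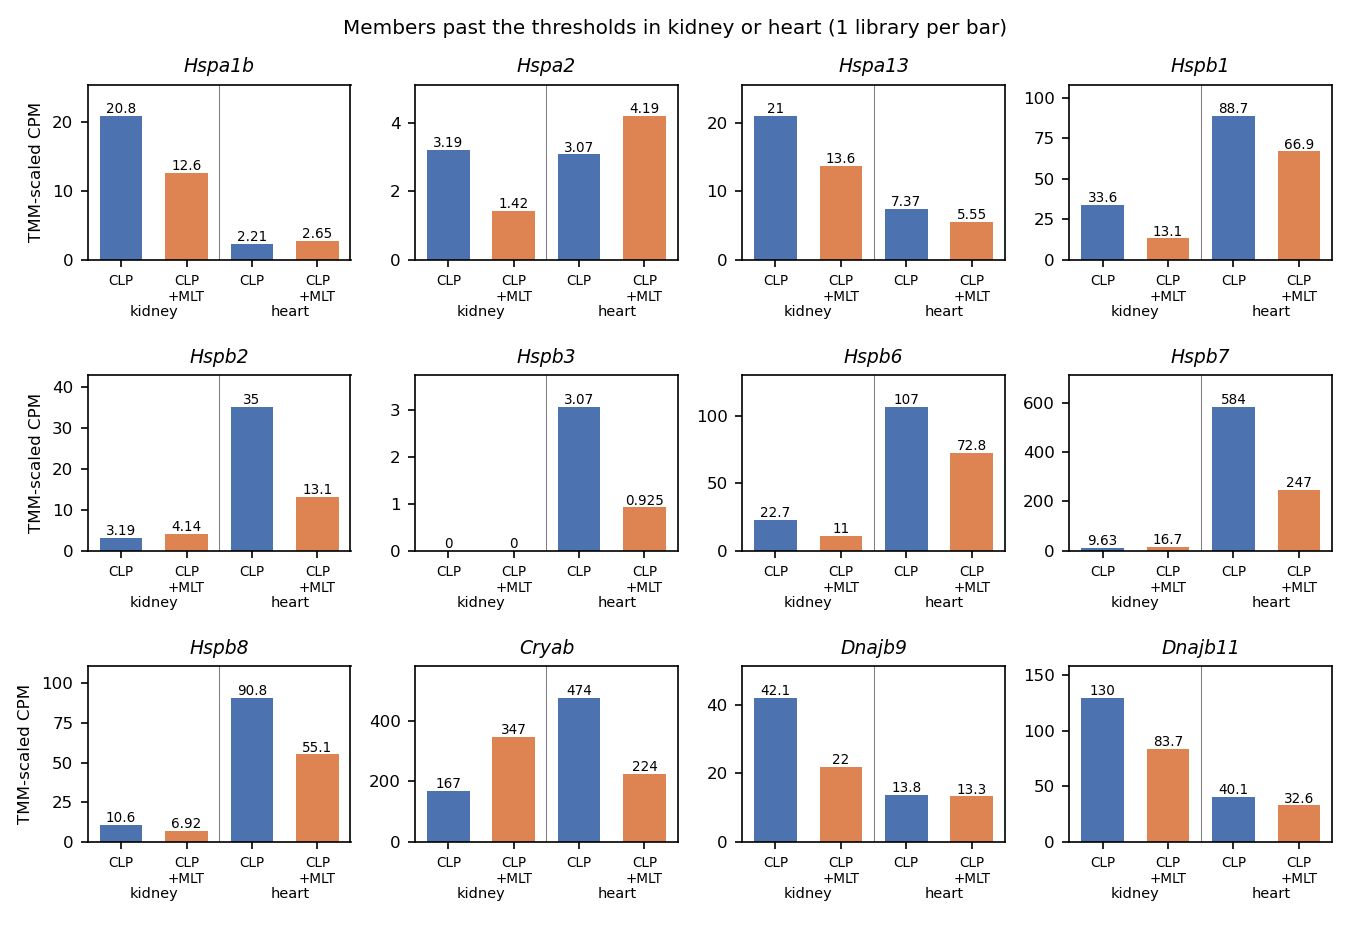
TMM-scaled CPM of the 12 members called in kidney or heart, 1 library per bar, with the value above it (blue, CLP, and orange, CLP + MLT). Scaling was done within each tissue, so bars compare treatments within kidney or within heart, and Cryab and Hspb7 are higher with melatonin in kidney and lower in heart.

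The Hsp70 genes were mostly lower in kidney and went both ways in heart. In kidney 6 of 9 were lower, 3 of them called, with a median of −0.45. In heart 5 were higher and 4 lower, 0 called, with a median of 0.03. Hspa8 carried most of the family's reads. It was at 3171 and 2326 CPM in kidney, a log2 ratio of −0.45 (−0.47 to −0.43), and at 1064 and 727 CPM in heart, a log2 ratio of −0.55 (−0.58 to −0.52). Both were short of the threshold, and Hspa8 was the Hsp70 gene nearest to it in heart. Hspa8 alone made up 39.8% of the reads of all members in the CLP kidney library and 22.8% in the CLP heart library. About 39.4% of its 50-base stretches also occur in other genes, most of them in the pseudogene Gm15459. Hspa9, the Hsp70 of mitochondria (mortalin), was at 525 and 375 CPM in kidney, with −0.49 (−0.53 to −0.44), and at 179 and 163 CPM in heart, with −0.13 (−0.21 to −0.05).

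The inducible pair Hspa1a and Hspa1b encodes nearly the same protein and cannot be told apart with confidence. Hspa1b was at 20.8 and 12.6 CPM in kidney, a called log2 ratio of −0.72 (−0.97 to −0.48), but Hspa1a was at 17.3 and 18.8 CPM, with 0.11 (−0.11 to 0.33). Of the 50-base stretches of Hspa1b, 62.3% also occur in Hspa1a, so reads of the pair can be lost or split. Summed, the pair had 931 and 485 counts and a log2 ratio of −0.28 (−0.44 to −0.12), which was not called. In heart the pair summed to 84 and 79 counts, with −0.08 (−0.55 to 0.38), so a difference was not detectable.

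Among the other Hsp70 genes, Hspa13, an Hsp70 relative of microsomes, was at 21.0 and 13.6 CPM in kidney, with a called log2 ratio of −0.62 (−0.86 to −0.39). Hspa2, best known from the testis, had only 78 and 22 counts in kidney, with −1.15 (−1.92 to −0.47), and 50 and 68 in heart, with 0.44 (−0.10 to 1.00). Hspa12b was at 9.46 and 8.02 CPM in kidney, with −0.24 (−0.57 to 0.08), and at 186 and 214 CPM in heart, with 0.20 (0.13 to 0.27). The endothelial markers stood in the same directions, 5 of 5 lower in kidney (171 and 130 CPM summed) and 4 of 5 higher in heart (900 and 1057 CPM summed), and their part was not tested. Its relative Hspa12a had 0.16 in kidney and 0.22 in heart, and Hspa14, a partner of the ribosome, had 0.26 and 0.03, none of them called.

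The Hsp110 genes, which act as nucleotide exchange factors of Hsp70, were lower in kidney, 3 of 3, and 0 were called. Hspa4 was at 132 and 102 CPM with −0.37 (−0.46 to −0.28), and Hsph1 at 123 and 105 CPM with −0.24 (−0.33 to −0.15). In heart, Hspa4 was at 49.9 and 50.7 CPM, with 0.02 (−0.12 to 0.17), and Hsph1, the heat-inducible one, was at 22.9 and 27.8 CPM, with 0.28 (0.08 to 0.48). Hspa4l had −0.25 in kidney and −0.17 in heart. Their heart minus kidney differences were 0.39 for Hspa4 and 0.52 for Hsph1, with intervals above 0, and 0.08 for Hspa4l, with an interval from −0.15 to 0.31.

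The Hsp90 genes were lower by like amounts in kidney but not in heart. In kidney, Hsp90ab1 was at 1119 and 873 CPM, with −0.36 (−0.39 to −0.33). Hsp90aa1, the inducible cytosolic form, was at 378 and 284 CPM, with −0.41 (−0.46 to −0.36), and Hsp90b1 (Grp94) was at 528 and 408 CPM, with −0.37 (−0.42 to −0.33). In heart, Hsp90aa1 was higher, at 56.3 and 73.4 CPM, with 0.38 (0.26 to 0.51). Hsp90ab1 was lower there, at 490 and 420 CPM, with −0.22 (−0.27 to −0.18), and Hsp90b1 was at 126 and 120 CPM, with −0.08 (−0.17 to 0.01). None was called. The count ratio of Hsp90aa1 to Hsp90ab1 within a library was 0.338 and 0.326 in kidney, a log2 change of −0.05 (−0.11 to 0.01), and 0.115 and 0.175 in heart, a log2 change of 0.61 (0.47 to 0.74). The balance of the inducible to the constitutive form was therefore different between the heart libraries beyond counting error, and such a difference was not detectable in kidney. Hsp90aa1 shares 47.5% of its 50-base stretches with other genes, mainly the pseudogene Gm12346, which had 21 to 75 counts.

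The chaperonin genes Hspd1 (Hsp60) and Hspe1 (Hsp10), whose products form 1 folding chamber in mitochondria and whose shared promoter is printed above, parted in each tissue. In kidney, Hspd1 was at 338 and 234 CPM, with −0.53 (−0.59 to −0.47), and Hspe1 at 166 and 187 CPM, with 0.17 (0.10 to 0.24), which was −0.01 with scaling by library size only. In heart the order was the other way, with Hspd1 at 101 and 119 CPM, 0.24 (0.14 to 0.33), and Hspe1 at 27.2 and 23.4 CPM, −0.22 (−0.42 to −0.02). Neither gene was called. Their count ratio changed by −0.70 (−0.79 to −0.61) in kidney and by 0.46 (0.24 to 0.67) in heart on the log2 scale. Hspe1 has a short transcript of 774 bases, in the shortest group, and Hspd1 one of 2423 bases, so the length trend above moves with this pair in heart. With the trend removed, Hspe1 had −0.02 (−0.22 to 0.18) in heart, an interval that spans 0, and Hspd1 had 0.23. Hspd1 shares 42.1% and Hspe1 22.8% of their 50-base stretches with other genes, mostly pseudogenes.

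**Figure D4:**
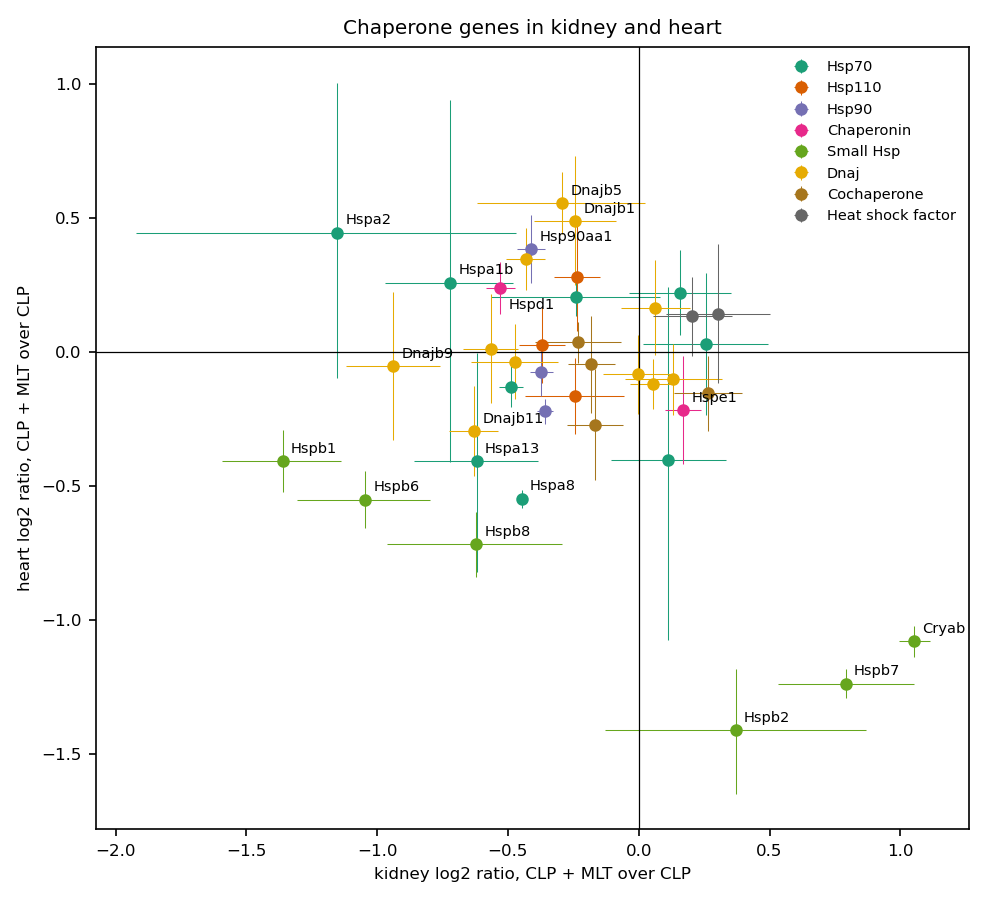
Log2 ratio of CLP + MLT over CLP in kidney (x axis) and heart (y axis) for the 40 members tested in both, with 95% counting intervals as lines and families as colours. Cryab, Hspb7 and Hspb2 lie apart at the lower right, higher in kidney and lower in heart, and 12 members lie at the upper left, lower in kidney and higher in heart.

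The Dnaj genes were lower in kidney, 8 of 11, with a median of −0.29, and went both ways in heart, 5 higher and 6 lower, with a median of −0.04. The called ones were genes of the ER in kidney. Dnajb9 (ERdj4), which holds the ER stress sensor Ire1 in check, was at 42.1 and 22.0 CPM, with −0.94 (−1.12 to −0.76). Dnajb11 (ERdj3) was at 130 and 83.7 CPM, with −0.63 (−0.72 to −0.54). In heart they were at 13.8 and 13.3 CPM and at 40.1 and 32.6 CPM, with −0.05 (−0.33 to 0.22) and −0.30 (−0.47 to −0.13). Dnaja3 (Tid1), the Dnaj protein of mitochondria, had −0.57 (−0.67 to −0.46) in kidney, just under the threshold, and 0.01 in heart. The Dnaj gene with the highest mean TPM over the 4 libraries was Dnaja2, although Dnajb11 was above it in the CLP kidney library (87.7 against 80.1 TPM). Dnaja2 was at 109 and 113 CPM in kidney and 117 and 107 CPM in heart, with log2 ratios of 0.05 and −0.12.

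Some Dnaj genes of the cytosol stood on opposite sides of 0 in the 2 tissues. Dnajb1 (Hsp40), the main partner of inducible Hsp70, was at 39.1 and 33.0 CPM in kidney, with −0.24 (−0.40 to −0.09), and at 15.2 and 21.4 CPM in heart, with 0.49 (0.25 to 0.73). Dnaja1 had −0.43 (−0.51 to −0.36) in kidney and 0.35 (0.23 to 0.46) in heart. Dnajb5 had 242 and 125 counts in kidney, with −0.29 (−0.62 to 0.02), and 1028 and 1505 counts in heart, with 0.55 (0.44 to 0.67), the highest ratio of any member in heart. None of the 3 was called, although Dnajb5 passed in heart when libraries were scaled by size only (0.62) or by the upper quartile (0.60). The remaining genes, Dnaja4, Dnajb2, Dnajb4 and Dnajb6, lay between −0.47 (Dnajb4) and 0.13 (Dnaja4) in kidney and between −0.10 and 0.16 in heart, and 44.1% of the exonic bases of Dnaja4 overlap Wdr61 on the other strand.

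The cochaperones and heat shock factors differed little. Bag3, which links Hsp70 and Hspb8 to autophagy, was at 35.1 and 29.9 CPM in kidney, with −0.23 (−0.40 to −0.07), and at 165 and 169 CPM in heart, with 0.04 (−0.04 to 0.11). Its partner Hspb8 was called lower in both tissues, whereas Bag3 was called in neither. Stip1 (Hop), which joins Hsp70 to Hsp90, was at 116 and 102 CPM in kidney, with −0.18, and at 31.5 and 30.5 CPM in heart, with −0.05. Ahsa1, the activator of the Hsp90 ATPase, had −0.17 and −0.27, and Chordc1, another partner of Hsp90, had 0.27 and −0.15. Hsf1 was at 34.8 and 40.1 CPM in kidney, with 0.21 (0.05 to 0.36), and at 44.0 and 48.2 CPM in heart, with 0.13 (−0.02 to 0.28). Hsf2 was at 19.7 and 24.4 CPM in kidney, with 0.30 (0.11 to 0.50), and at 14.7 and 16.2 CPM in heart, with 0.14 (−0.12 to 0.40). Neither factor was called, and with scaling by library size only the kidney values were 0.02 for Hsf1 and 0.12 for Hsf2. Activity of Hsf1 is set by its protein state, which RNA counts do not measure.

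Across the families, the members of the ER lumen were low together in kidney. This grouping was made after the values were seen. All 4 of them (Hspa13, Hsp90b1, Dnajb9 and Dnajb11) were lower, 3 were called, and their median was −0.63. This was not particular to the ER, since 3 of the 4 mitochondrial members (Hspa9, Hspd1, Hspe1 and Dnaja3) were lower too. Their median was −0.51, and 0 were called. The 32 other members tested had a median of −0.23, with 5 called lower and 2 higher. The ratio of Hsp90b1 (−0.37) was like those of Hsp90aa1 (−0.41) and Hsp90ab1 (−0.36). In heart all 4 ER members were also lower, from −0.41 to −0.05, and 0 were called, but Dnajb9 was at 0.01 there with scaling by library size only. In the list of other ER folding genes, 15 of 15 were lower in kidney with a median of −0.52, and 5 (33.3%) were called, against 7.87% of all genes called lower. Hyou1 (Grp170), the Hsp110 of the ER, had −1.06 (−1.17 to −0.95) and Manf, a protein released under ER stress, −0.84 (−0.94 to −0.74). Hspa5 (BiP), the Hsp70 of the ER, was also called, from 17313 to 6834 counts with −0.68, but it was picked after its value was seen. In heart, 9 of these 15 genes were lower and 6 were higher, 1 was called (Sil1, −0.94), and Hspa5 had 0.26.

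Other chaperone genes that are not among the 41, some of them of the same families, were counted in lists of 99 genes in all, the ER list included. In kidney 94 passed the filter, 3 were called higher and 9 lower, with a median of −0.15. In heart 92 passed, 2 were called higher and 7 lower, with a median of −0.14. The shares of called genes were 12.8% in kidney and 9.78% in heart, against 15.3% and 15.9% of all genes. Of the chaperonin CCT of the cytosol and its partner prefoldin, 1 gene was called in kidney (Pfdn5, 0.61) and 2 in heart (Pfdn1, −0.79, and Pfdn6, −1.30). Of mitochondrial folding and proteolysis, 0 of 9 were called in kidney and 1 in heart, the protease gene Clpp (−1.16). Of 26 further cochaperones of Hsp70 and Hsp90, 2 were called in kidney, both lower (Bag2, −0.65, and Fkbp5), and 2 in heart (Bag4, 0.74, and Fkbp5). Of these, Fkbp5, a partner of the glucocorticoid receptor that glucocorticoids induce, was called lower in both, with −0.81 (−0.92 to −0.70) and −1.53 (−1.69 to −1.37). Of 29 other Dnaj genes, 27 passed the filter in kidney and 20 of them were lower. Dnajc17 (0.73) was called higher there. Dnajb13 (−1.96, 63 and 10 counts) and Dnajc24 (−0.72, 99 and 38 counts) were called lower from few reads. In heart 25 passed and 20 were lower. Dnajc9 (0.79) was called higher, and Dnajc15 (−1.0) and Dnajc22 (−1.38, 27 and 10 counts) were called lower. Of 6 other heat shock genes, 3 passed the filter in each tissue and 1 was called in kidney, Hsf4, with 38 and 48 counts.

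Other stress and timing genes moved in the same libraries. The immediate early genes, which respond to acute stress within minutes, were lower in kidney, 7 of 7, with a median of −0.84. Of these 4 were called (57.1%), against 7.87% of all genes called lower. In heart 3 were higher and 5 lower, with a median of −0.13. Atf3 was called higher there (1.14, 78 and 172 counts), the only call, against 7.05% of all genes called higher. In kidney Atf3 was called lower (−1.12). Clock genes on the side of Per had medians of 0.86 in kidney and 0.79 in heart, and those on the side of Bmal1 had −0.90 and −0.81. Against these medians, Nr1d1 of the Per side was called lower in kidney (−0.64) and Cry1 of the Bmal1 side was called higher there (0.82). Several heat shock genes are known to follow the time of day, and the hour of collection is stated nowhere in these sources, so its part was not tested. Macrophage markers were 5 of 6 higher in kidney, with 116 and 232 CPM summed, and 3 of 6 higher in heart, with 222 and 277 CPM summed. The members of this list differed among themselves. In kidney Lyz2 (1.80) and Csf1r (1.12) were called higher, and Cd68 was lower (−0.50). In heart Adgre1 (1.55) and Lyz2 (1.13) were called higher, C1qa (−0.80) was called lower, and C1qb (−0.55) and Cd68 (−0.03) were lower. Neutrophil markers were low, at 19.0 and 15.1 CPM summed in kidney and 49.95 and 37.3 in heart, with Ly6g at 0 in all 4 libraries.

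All members together took 0.849% (95% exact interval 0.845 to 0.853) of the counts in the CLP kidney library and 0.597% (0.593 to 0.600) in the CLP + MLT kidney library. In heart the shares were 0.457% (0.454 to 0.460) and 0.371% (0.368 to 0.374). After TMM scaling the summed level of the members was 7975 and 6355 CPM in kidney, a log2 ratio of −0.33, and 4670 and 3635 CPM in heart, a log2 ratio of −0.36. These like sums had different sources. In kidney the summed level of the Hsp70 genes went from 3804 to 2795 CPM while that of the small Hsps went from 247 to 399 CPM. In heart the small Hsps went from 1382 to 680 CPM and the Hsp70 genes from 1496 to 1177 CPM. The Hsp90 genes were at 672 and 613 CPM there and the Dnaj genes at 529 and 561 CPM.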

How the data were processed

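Kidney and heart RNA of the CLP and CLP + MLT groups was sequenced as 1 library each. Reads were trimmed (trim-galore) and mapped to mm10 (HISAT2 2.1.0), and the authors deposited raw counts per gene without normalization. The submitters' notes name HTSeq for counting. No source used here gives its version, strand setting or annotation, and overlapping genes are therefore uncertain. The 5 totals that name no gene, 65.5% to 72.8% of each file's reads, were left out.

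Factors of the TMM method, which aligns the bulk of the genes, were computed within each tissue with edgeR 4.0.16 in R 4.3.3 (1.06 and 0.939 in kidney, 0.979 and 1.02 in heart). Genes averaging 10 counts or more over both libraries of a tissue were kept. The log2 ratio used a prior count of 0.5. A dispersion cannot be estimated from single libraries. The study's thresholds, 1.5-fold and a p-value of 0.01, were therefore used with exact binomial tests of the reads (Python 3.11.15, scipy 1.17.1). Intervals and the floor of 3 counts cover counting error only. They treat each read as a separate molecule, and no removal of PCR copies is described, so they may be too narrow. Alternatives were library size only, DESeq2 1.42.0 size factors, the upper quartile, TMM without mitochondrial and haemoglobin genes, other filters and prior counts, other call rules and edgeR's exact test at assumed variations. Removal of the length trend and the sum of Hspa1a and Hspa1b were added after seeing the data. The procedure was tested on simulated data.

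Names, positions and lengths were taken from GENCODE M21 (GRCm38, the build of mm10), which matched 55141 of 55401 genes, and promoters from RefSeq (GRCm38.p6). The members and lists were chosen with earlier results of these data known. The genes named by rule are the members called in either tissue, the 2 of each family with the highest mean TPM, and from the lists of other chaperones up to 3 called genes in each direction per tissue with a mean of at least 100 counts. Other genes were named after their values were seen.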

Additional observations from a re-analysis of the deposited data

Results flagged for a closer look

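Cryab and Hspb7 were called in opposite directions in kidney and heart. On the log2 scale, the heart ratio minus the kidney ratio was −2.13 for Cryab and −2.03 for Hspb7. Each tissue had 1 library per group, so the difference between the tissues was not tested over mice. With the length trend removed, Cryab had 1.03 in kidney and −0.93 in heart, and Hspb7 had 0.80 and −1.25.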

How the results depend on the processing

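The number of called members in kidney was 10, against 15.3% of all genes. It was 17 (2 higher, 15 lower) with scaling by library size only, against 18.3% of all genes. At a fold change of at least 2 it was 4, against 7.03% of all genes. With edgeR's exact test it was 1 at an assumed coefficient of variation of 0.2 and 0 at 0.4. The shares of all genes were 3.62% and 0.543% there. The median of the members in kidney was −0.43 with scaling by library size only, which moved the median of all genes to −0.19 and the share of higher calls among all genes from 48.7% to 23.5%. That scaling added Hspa8, Hspa9, Hsp90aa1, Hspd1, Dnaja1, Dnaja3 and Dnajb4 to the lower calls. It also put 6 uncalled members that were above 0 in kidney below it (Hspa1a, Hspa12a, Hspe1, Dnaja2, Dnaja4 and Dnajb6, −0.13 to −0.01), and Dnajb4, Dnajb9 and Stip1 in heart just above it. In heart the number was 5, against 15.9% of all genes, and it was 0 at an assumed variation of 0.4, against 0.397%. It was 6, 1 of them higher (Dnajb5), with scaling by library size only and with the upper quartile. Of all genes, 16.0% were called under each of these scalings. The other alternatives kept the counts within 1.5 times, and no called gene changed direction under any alternative run. Hspa1b was not called once its counts were summed with those of Hspa1a (−0.28). No paired analysis was possible because each group had 1 library. The depth limits Hspa2, Hspa1a, Hspa1b, Hspb2 and Hspb3, which had 78 counts or fewer in at least 1 tissue.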

Other observations

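The ratio of Dnajb1 to Hspa8 within a library, which no scaling changes, was 0.0123 and 0.0142 in counts in kidney and 0.0143 and 0.0294 in heart. The log2 change was 0.20 (0.05 to 0.36) in kidney and 1.04 (0.80 to 1.28) in heart. The Hspa8 pseudogene Gm15459 had 1751 and 624 counts in kidney and 264 and 260 in heart. Of the 40 members tested in both tissues, 15 were lower in both, 5 were higher in both, 12 were lower in kidney and higher in heart, and 8 were higher in kidney and lower in heart. The heart minus kidney difference had a counting interval above 0 for 20 members, below 0 for 8 and across 0 for 12.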
